A study of Mus musculus with 2 samples.

Results

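Translation factors and aminoacyl-tRNA synthetases are the soluble proteins that bring messenger RNA to the ribosome, charge transfer RNAs with amino acids and drive the growth of the peptide chain. Their messenger RNAs were compared between liver of irradiated mice and liver of control mice. The members were all genes whose symbol begins with Eif or Eef and a digit, without the eIF2 kinase genes Eif2ak, and the synthetase genes whose symbol is 1 or 2 letters and ars with at most 1 further character (such as Wars, Iars2 or Farsb), with Eprs. This gave 94 genes among the 22180 genes that had a probe set of their own. The rule used symbols and not measured values.

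The irradiated sample was liver of male C57BL/6 mice exposed once, when 4 weeks old, to 6 Gy of gamma rays over the whole body, given under anaesthesia at 0.81 Gy per minute. It was taken 5 weeks after the exposure, when the mice were 9 weeks old. The control sample was liver of male C57BL/6 mice of 9 weeks with no irradiation. C57BL/6 is an inbred laboratory strain, and the labels name no transgene or deleted gene in either group. Each group was 1 Affymetrix whole-transcript array, and the labels do not state whether a sample was 1 mouse or a pool, nor whether the control was anaesthetised.

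Values are log2 RMA values, which are relative probe intensities, and every difference is irradiated minus control on the log2 scale. With 1 array in each group there was no replicate and no p-value, none of the differences has a replicate check, and the number of arrays limits the precision. A gene with at least 1 of its 2 values at or above 6.06, the median over the whole deposited table, was taken as expressed. Expressed genes numbered 13689, with a median difference of -0.00 and their central 95% between -0.37 and 0.42. The size used for counting was 1.5-fold, which is 0.58 on the log2 scale. All 10 hepatocyte markers were expressed, with differences from -0.02 to 0.08.

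Protein synthesis starts when the eIF4 factors bind the cap of a messenger RNA, eIF2 brings the initiator transfer RNA, and eIF3 holds the small ribosomal subunit. Elongation factors then deliver charged transfer RNAs and move the ribosome along. Cytosolic synthetases charge the transfer RNAs for this, and a separate set of nuclear genes encodes the synthetases that work inside mitochondria. In mammals, several cytosolic synthetase genes are targets of ATF4, the transcription factor of the integrated stress response. Liver makes most plasma proteins and has a high demand for all of these components.

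No member changed by 1.5-fold. Of the 94 members 91 were expressed, and 0 of the 91 were higher by 1.5-fold or more, with 0 of the 91 lower by as much. Among all expressed genes 1.14% were that much higher and 0.65% that much lower. At these shares 0 of 91 is close to the background and is no result about the members. All 91 members lay inside the central 95% of expressed genes. Their differences ran from -0.32 to 0.39, with a median of 0.02, and 50 of 91 (54.9%) were above 0, against 48.5% of all expressed genes. The standard deviation of the members' differences was 0.144, against 0.229 over all expressed genes and 0.226 over genes with mean values in the same range. The middle 50% were closer, from -0.08 to 0.10 for the members and from -0.11 to 0.10 for all expressed genes. For genes with mean values in the same range they ran from -0.11 to 0.09. Past a smaller size, a log2 difference of 0.32, 3 members were higher (4.65% of expressed genes were) and 1 was lower (3.75% of expressed genes were). Past it were Eif4a3l1 and the synthetase genes Cars and Nars on the higher side and Rars2 on the lower side, and those just short of it were Tars at 0.31 and Sars2 at -0.31.

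**Figure D1:**
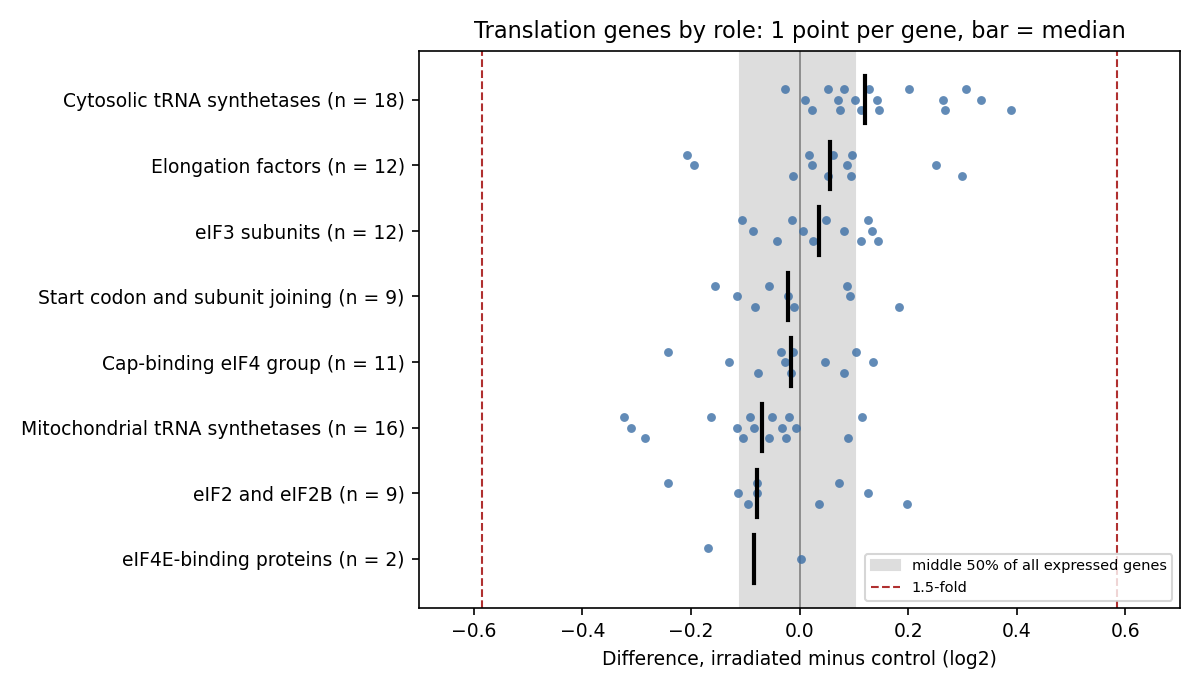
Log2 difference, irradiated minus control, on the horizontal axis for expressed members in 8 role groups, with 1 point per gene, a black bar at each group's median, a grey band for the middle 50% of all expressed genes and dashed lines at 1.5-fold. No point reaches a dashed line, the cytosolic synthetases have a median of 0.12 and the mitochondrial synthetases one of -0.07.

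The 2 sets of synthetases lay on opposite sides of 0. Of 18 cytosolic synthetase genes, 17 were above 0. Their median was 0.12, and their middle 50% ran from 0.07 to 0.25. Of 16 mitochondrial synthetase genes, 14 were below 0. Their median was -0.07, and their middle 50% ran from -0.13 to -0.02. Over all expressed genes 48.5% were above 0 and 50.3% below 0. These are counts of genes on the same 2 arrays, and genes are not replicates.

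Cars, which charges cysteine, had the highest difference of the cytosolic set. Its value was 8.62 on the irradiated array and 8.23 on the control array, a difference of 0.39 or 1.31-fold. Nars, the asparagine enzyme, read 10.54 on the irradiated array and 10.21 on the control array, 1.26-fold higher. Of all expressed genes, 96.9% had a smaller difference than Cars and 95.7% a smaller one than Nars. The threonine enzyme gene Tars read 9.33 on the irradiated array and 9.02 on the control array, a difference of 0.31. Mars1, which charges methionine, read 9.51 on the irradiated array and 9.24 on the control array, a difference of 0.27 or 1.20-fold. Wars, the tryptophan enzyme and also an interferon-responsive gene, read 8.95 on the irradiated array and 8.69 on the control array, 1.20-fold higher. These 5 genes were the part of the cytosolic set above a difference of 0.25.

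The next genes of the set differed by smaller amounts. Iars, for isoleucine, read 9.95 on the irradiated array and 9.75 on the control array, a difference of 0.20. Yars, for tyrosine, was at 9.13 on the irradiated array and 8.98 on the control array, a difference of 0.15. Gars, for glycine, was at 9.49 on the irradiated array and 9.35 on the control array, a difference of 0.14. Lars (leucine) differed by 0.13, Eprs, which charges both glutamate and proline, by 0.11, and Farsa, the alpha subunit of the phenylalanine enzyme, by 0.10. The differences of Sars (serine), Vars (valine), Qars (glutamine) and Hars (histidine) were 0.08, 0.07, 0.07 and 0.05. Kars (lysine) and Rars (arginine) were at 0.02 and 0.01. Farsb, the beta subunit of the phenylalanine enzyme, was the member below 0, with 8.93 on the irradiated array and 8.96 on the control array. Gars and Kars encode both the cytosolic and the mitochondrial enzyme for their amino acids, and without them 15 of 16 cytosolic genes were above 0 and the median was again 0.12.

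**Figure D2:**
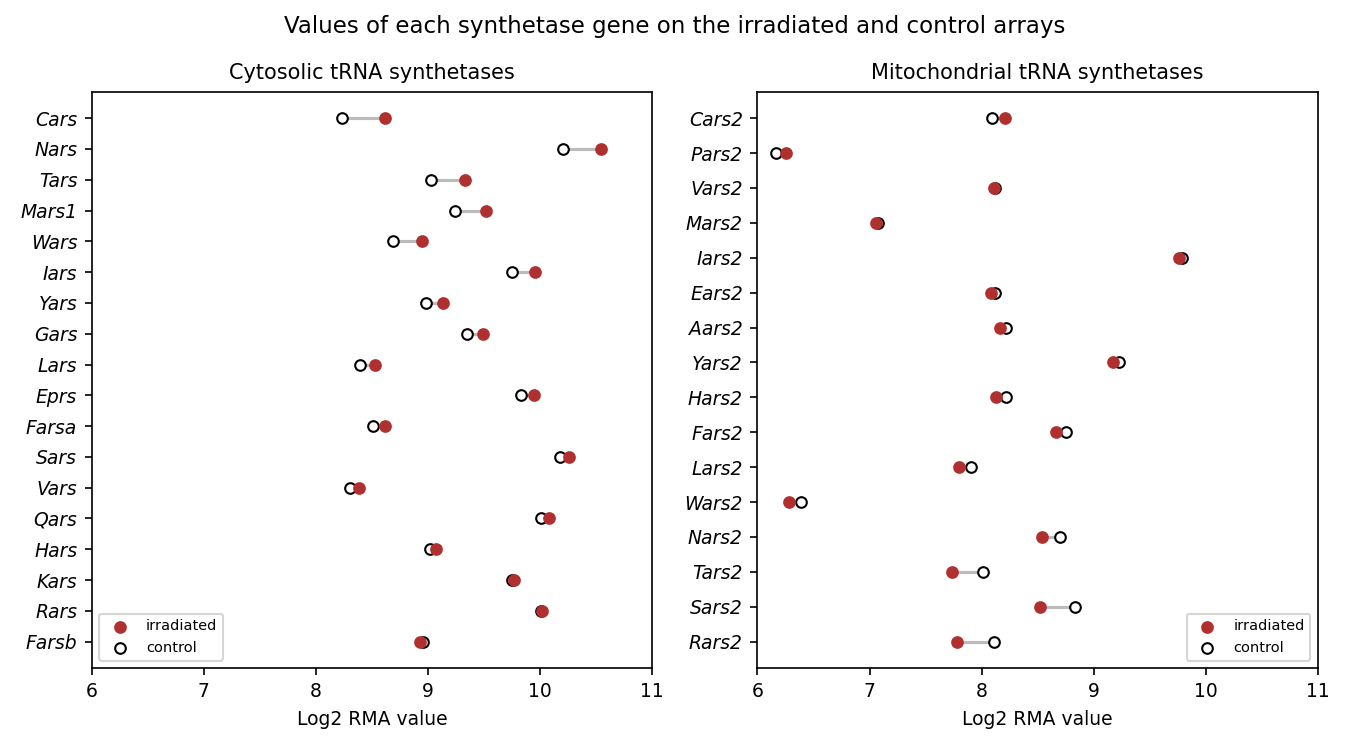
Log2 RMA value on the horizontal axis for each cytosolic (left panel) and mitochondrial (right panel) synthetase gene, with the irradiated array as a filled point and the control array as an open point, 1 array each, and genes ordered by difference. The irradiated point lies to the right in 17 of 18 cytosolic genes and to the left in 14 of 16 mitochondrial genes, and values of different genes are not comparable with each other.

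Rars2, the mitochondrial arginine enzyme, had the lowest difference of all members. It read 7.78 on the irradiated array and 8.11 on the control array, a difference of -0.32. Sars2, for serine, read 8.52 on the irradiated array and 8.83 on the control array, a difference of -0.31. Tars2, for threonine, read 7.73 on the irradiated array and 8.02 on the control array, a difference of -0.28. These 3 genes stood below the rest of the mitochondrial set, where Nars2 (asparagine) came next at -0.16. Nars2 read 8.54 on the irradiated array and 8.70 on the control array, and its other probe set read 6.43 on both arrays. In a bulk liver sample, fewer cells of a type and less RNA per cell cannot be told apart.

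The other mitochondrial genes lay nearer to 0. Wars2 and Lars2 differed by -0.11 and -0.10, Fars2 and Hars2 by -0.09 and -0.08, and Yars2 and Aars2 by -0.06 and -0.05. Ears2 was at -0.03, Iars2 also at -0.03, Mars2 at -0.02 and Vars2 at -0.01. The letter before ars in these symbols is the amino acid code, so that Ears2 charges glutamate and Fars2 phenylalanine. Cars2 and Pars2 were above 0, at 0.11 and 0.09. Cars2 read 8.21 on the irradiated array and 8.10 on the control array, so that both cysteine enzymes were higher.

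Cytosolic and mitochondrial enzymes could be set side by side for single amino acids. In 12 amino acids 1 cytosolic and 1 mitochondrial gene were both expressed, and in 12 of 12 the cytosolic gene had the larger difference. The pairs reuse the differences already counted by side of 0, so this count largely restates those counts and adds no further support. The gap between the 2 genes had a median of 0.28 and ran from 0.08 for valine to 0.59 for threonine. It was 0.50 for asparagine, 0.39 for serine, 0.38 for tryptophan and 0.33 for arginine. For serine and arginine most of the gap came from the mitochondrial gene, since Sars and Rars differed by 0.08 and 0.01. For methionine and isoleucine most came from the cytosolic gene. With the phenylalanine subunits and the joint glutamate and proline enzyme also paired, the cytosolic gene had the larger difference in 16 of 16 pairings, which share Eprs and Fars2.

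**Figure D3:**
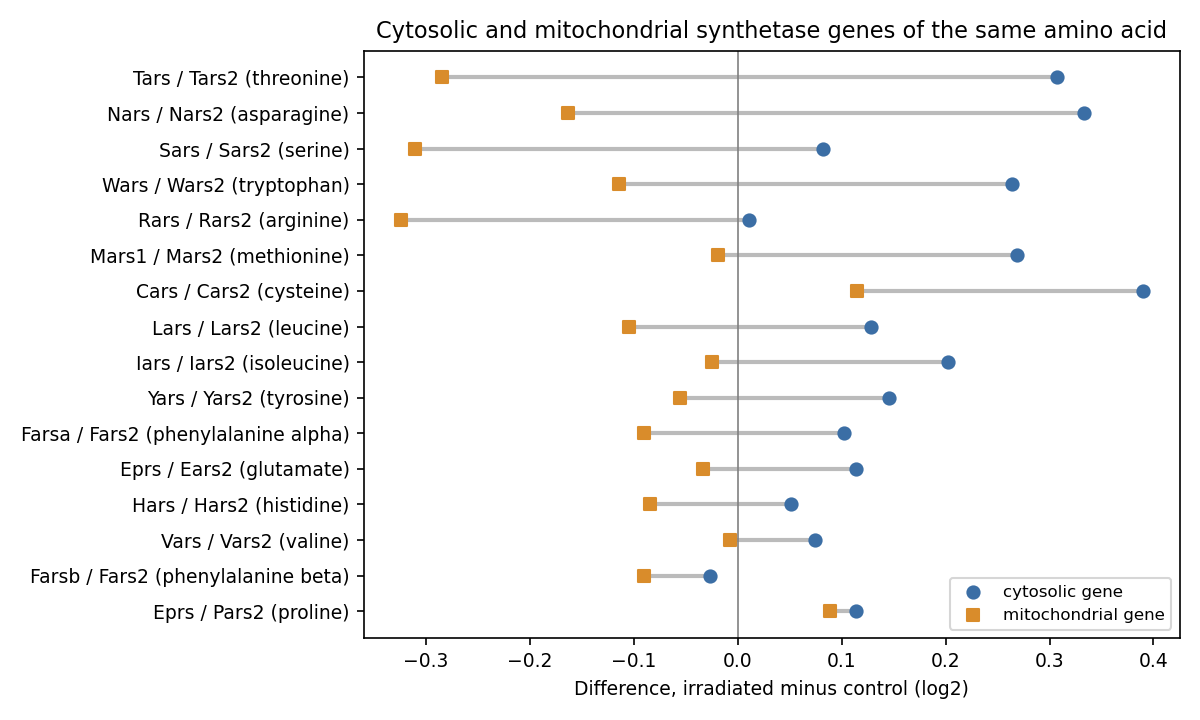
Log2 difference, irradiated minus control, of the cytosolic gene (circle) and the mitochondrial gene (square) for the same amino acid, joined by a line, on 1 array per group. The circle lies to the right of the square in all 16 rows, with the widest gap, 0.59, for threonine.

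The promoters of the synthetases were read for the core of the element that ATF4 and CHOP bind together, TGATGNAA, on both strands. The windows are the RefSeq sequences of mouse build GRCm38.p6, from 250 bases before to 50 after the annotated start. Windows were found for 69 of the 91 expressed members, 11 of the 18 cytosolic and 14 of the 16 mitochondrial synthetases among them. The motif was present in 4 of the 11 cytosolic genes (36.4%) and in 0 of the 14 mitochondrial genes. It was in 2.98% of expressed array genes with a window and in 4.51% of all genes of the table. Outside the synthetases, Eef2k was the only expressed member with a match. A match describes these letters, and says nothing of whether the factor was bound.

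The windows of the 4 cytosolic synthetase genes with a match are shown, with the window of Tars2 added as the mitochondrial counterpart of the widest pair. They lie at chr15:11399609-11399908 (minus strand) for Tars, chr13:49681880-49682179 (plus strand) for Iars, chr4:129189653-129189952 (plus strand) for Yars, chr6:55037751-55038050 (plus strand) for Gars and chr3:95754928-95755227 (minus strand) for Tars2. Each runs 5′ to 3′ in the direction of its gene, with the motif or its reverse complement in capitals and no capitals in Tars2.
Tars: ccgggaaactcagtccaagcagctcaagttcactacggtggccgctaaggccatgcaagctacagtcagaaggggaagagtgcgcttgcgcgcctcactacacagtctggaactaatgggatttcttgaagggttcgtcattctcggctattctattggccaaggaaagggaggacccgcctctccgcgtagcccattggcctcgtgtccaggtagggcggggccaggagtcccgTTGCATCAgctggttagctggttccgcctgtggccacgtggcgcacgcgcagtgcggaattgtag
Iars: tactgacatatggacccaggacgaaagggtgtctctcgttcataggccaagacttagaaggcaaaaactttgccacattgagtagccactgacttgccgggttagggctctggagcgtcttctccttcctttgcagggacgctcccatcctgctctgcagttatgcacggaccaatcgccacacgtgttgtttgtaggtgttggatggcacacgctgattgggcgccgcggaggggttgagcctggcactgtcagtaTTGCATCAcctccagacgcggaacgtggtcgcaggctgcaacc
Yars: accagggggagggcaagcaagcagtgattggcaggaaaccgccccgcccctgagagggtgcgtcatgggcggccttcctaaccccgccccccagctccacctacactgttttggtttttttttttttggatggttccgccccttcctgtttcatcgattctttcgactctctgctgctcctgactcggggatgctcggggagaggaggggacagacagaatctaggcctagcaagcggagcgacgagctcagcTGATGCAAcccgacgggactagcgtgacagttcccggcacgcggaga
Gars: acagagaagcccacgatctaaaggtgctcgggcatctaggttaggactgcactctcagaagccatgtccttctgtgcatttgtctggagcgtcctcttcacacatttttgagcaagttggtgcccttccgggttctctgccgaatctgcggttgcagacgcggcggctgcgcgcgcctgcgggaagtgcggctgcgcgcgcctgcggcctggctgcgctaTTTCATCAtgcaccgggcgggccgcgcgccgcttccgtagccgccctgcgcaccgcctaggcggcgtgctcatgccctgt
Tars2: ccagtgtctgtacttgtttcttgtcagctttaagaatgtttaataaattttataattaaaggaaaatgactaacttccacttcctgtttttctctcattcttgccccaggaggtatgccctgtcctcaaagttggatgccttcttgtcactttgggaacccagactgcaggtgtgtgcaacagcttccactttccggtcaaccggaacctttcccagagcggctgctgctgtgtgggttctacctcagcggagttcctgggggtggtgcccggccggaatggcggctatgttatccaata

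The match began at position -15 relative to the start in Tars, -30 in Gars, 8 in Iars and 4 in Yars, counting the first transcribed base as 1. Their log2 differences were 0.31, 0.14, 0.20 and 0.15. Cars and Nars, which had the highest differences of the cytosolic set, were not among the matches. Genes without a window were not read, and it is not stated here whether Cars and Nars had one. Their absence from the matches need not mean that the motif is absent. A further motif, the E-box CACGTG to which Myc and Max bind, was in 16 of the 69 member windows (23.2%), against 11.4% of expressed genes with a window. Among the holders were the cytosolic synthetase genes Tars, Iars and Farsb, with differences of 0.31, 0.20 and -0.03. The holders Eif4e, Eif4a1 and Eef2 lay between -0.13 and 0.06, and Eef1aknmt was at -0.21. In the role groups the E-box was in 3 of 11 cytosolic and 1 of 14 mitochondrial synthetase genes. It was also in 3 of 7 start codon and joining genes and in 3 of 9 cap-binding genes. The eIF3 and elongation groups had it in 3 of 9 genes each, and the eIF2 and eIF2B group in 0 of 8.

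The cap-binding group was spread around 0. Its 11 expressed genes had a median of -0.02, with 4 above 0, and none reached a difference of 0.32. Of all expressed genes 48.5% were above 0, 4.65% were higher by 0.32 or more and 3.75% lower by as much. At these shares, none past that size among so few genes is no result. Eif4e, which binds the cap itself, read 9.52 on the irradiated array and 9.54 on the control array. Eif4a2, 1 of the 2 helicases of the cap-binding complex, was the lowest at 10.13 on the irradiated array and 10.37 on the control array, a difference of -0.24. A further probe set of its own differed by -0.26 and passed the floor through the control array alone, and another at -0.42 was below the floor on both arrays. Of 3 probe sets it shares with other genes, those shared with Snord2 and with Snora81 differed by -0.23 and -0.02, the Snora81 one below the floor, and the one shared with Rfc4 by 0.11. The paralogue Eif4a1 read 13.17 on the irradiated array and 13.30 on the control array, a difference of -0.13, but its dimmer probe set differed by 0.09. Eif4a3, the helicase of the exon junction complex, was the highest of the group at 0.13, and a probe set shared with Eif4a3l1 and a further gene differed by 0.00. The eIF4G scaffold family genes Eif4g3 and Eif4g2 differed by 0.10 and 0.08, and the helicase cofactors Eif4b and Eif4h by -0.08 and 0.05. Eif4g1 had no probe set of its own, so it is not among the members. Eif4e2, a cap-binding repressor, was at -0.03, Eif4enif1, which carries eIF4E into the nucleus, at -0.03, and Eif4e3 at -0.02.

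The 4E-binding proteins hold eIF4E away from the scaffold until mTORC1 phosphorylates them. Eif4ebp1 read 11.006 on the irradiated array and 11.004 on the control array, a difference of 0.00. Eif4ebp2 read 11.62 on the irradiated array and 11.78 on the control array, a difference of -0.17. Eif4ebp3 shares its probe set with Ankhd1, and that probe set differed by -0.11.

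Among the genes of eIF2 and its exchange factor eIF2B, 4 of 9 were above 0 and the median was -0.08. Eif2s2, the beta subunit of eIF2, was the highest, with 8.27 on the irradiated array and 8.07 on the control array, a difference of 0.20. Eif2d, an alternative factor for initiator transfer RNA, was the lowest, with 8.45 on the irradiated array and 8.70 on the control array, a difference of -0.24. The gamma subunit gene on the Y chromosome, Eif2s3y, differed by 0.07, and Eif2a, another alternative initiation factor, by -0.08. Eif2s1, the alpha subunit gene, and Eif2s3x had no probe set of their own, so they are not among the members. The 5 subunits of eIF2B, the target of phosphorylated eIF2, did not move together. Eif2b5 and Eif2b1 were at 0.13 and 0.04, and Eif2b2, Eif2b3 and Eif2b4 at -0.11, -0.09 and -0.08.

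Subunits of eIF3 stayed within a narrow range, from -0.11 to 0.14, with 8 of 12 above 0 and a median of 0.04. Eif3f was the highest, with 11.68 on the irradiated array and 11.53 on the control array. Eif3b, Eif3c and Eif3a followed at 0.13, 0.13 and 0.11, and Eif3h and Eif3l at 0.08 and 0.05. Eif3i, Eif3m, Eif3e and Eif3k lay between -0.04 and 0.02, and Eif3d was at -0.09. Eif3j1 was the lowest at -0.11, and a probe set it shares with Eif3j2 differed by -0.04.

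Of the factors for scanning, start codon recognition and subunit joining, with the eIF5A genes, 3 of 9 were above 0 and the median was -0.02. Eif5, the GTPase activator of eIF2, read 11.64 on the irradiated array and 11.46 on the control array, a difference of 0.18. Eif5b, the GTPase that joins the subunits, read 7.69 on the irradiated array and 7.85 on the control array, a difference of -0.16. The scanning factor genes Eif1a, Eif1ax and Eif1b were at -0.02, -0.08 and -0.06, and Eif1ad at -0.11. Eif6, which keeps the large subunit from joining early, differed by 0.09. Eif5a, the hypusine-carrying factor that helps ribosomes past stalling sequences, differed by -0.01, and its paralogue Eif5a2 by 0.09.

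Elongation genes had a median of 0.06, with 9 of 12 expressed genes above 0. Eef1a1, which delivers charged transfer RNA to the ribosome, read 13.23 on the irradiated array and 13.21 on the control array. Its dimmer probe set differed by -0.10, and 2 probe sets shared with pseudogene-like symbols by -0.07 and 0.28, so that its direction is not settled. Eef1a2, the form known from muscle and neurons, was the highest of the group, with 7.17 on the irradiated array and 6.87 on the control array, a difference of 0.30 or 1.23-fold. Eef2, the translocase, read 12.95 on the irradiated array and 12.89 on the control array, and Eef2k, the kinase that inhibits it, differed by 0.09. The exchange complex genes Eef1b2, Eef1g and Eef1d were at 0.10, 0.10 and 0.02.

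Eef1e1, grouped here by its symbol, encodes a scaffold of the multi-synthetase complex. It read 10.004 on the irradiated array and 10.20 on the control array, a difference of -0.20, on the side of 0 opposite to the cytosolic enzymes. Among the methyltransferases of elongation factors, Eef1aknmt was the lowest of the group at -0.21 and Eef2kmt was at -0.01, while Eef1akmt1 was at 0.05. Eef1akmt2 differed by 0.25 and passed the floor through the irradiated array alone, with 6.09 there and 5.84 on the control array.

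Members with other kinds of transcript or low values complete the 94. Eif4a3l1, a close copy of Eif4a3, read 6.55 on the irradiated array and 6.20 on the control array, a difference of 0.35, and probes can cross-hybridise between the copies. Eif1-ps3, a pseudogene, differed by 0.03. The 3 members under the floor were Eif4e1b, at 5.25 on the irradiated array and 5.07 on the control array, Eef1akmt3, at 5.32 on the irradiated array and 5.51 on the control array, and Eif2c5, a non-coding gene, at 5.60 on the irradiated array and 5.69 on the control array. Aars shares its probe set with Exosc6, and that probe set read 9.32 on the irradiated array and 9.24 on the control array.

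Some members carry small nucleolar RNA genes within them, which are processed from their introns. By their RefSeq positions, 6 such genes lay inside 5 members, and 2 of these had a probe set of their own above the floor. Snora28, inside Eif5, read 8.90 on the irradiated array and 9.20 on the control array, a difference of -0.29, while Eif5 differed by 0.18. Snord37, inside Eef2, differed by 0.01 and Eef2 by 0.06.

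Lists of other genes that act beside the members were read in the same way. The mitochondrial translation factors, which work with the mitochondrial synthetases, were on the lower side, with 13 of 14 below 0 and a median of -0.11. Of all expressed genes 50.3% were below 0. A difference of 0.32 was reached by 0 of 14, beside 4.65% of expressed genes that much higher and 3.75% that much lower. At these shares 0 of so few genes is no result. The following examples were chosen after their values were seen. Qrsl1, the catalytic subunit of the amidotransferase that makes mitochondrial glutaminyl-tRNA, was the lowest, with 7.16 on the irradiated array and 7.47 on the control array, a difference of -0.31. Gatb, another subunit of it, was at -0.18, the initiation factor gene Mtif3 at -0.23, the elongation factor genes Gfm1 and Tufm at -0.18 and -0.08, and Mtfmt, which formylates the initiator transfer RNA, at 0.06.

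Targets of ATF4 outside the members had a median of 0.12 over 23 expressed genes, with 16 above 0, 7 below 0 and a wider range from -0.56 to 1.03. Of all expressed genes 48.5% were above 0. Past 1.5-fold, 5 of the 23 were higher and 0 lower, beside 1.14% higher and 0.65% lower among all expressed genes. Of the 5, Psat1, which makes serine, passed the floor through the irradiated array alone, as did Mthfd2 of the same list, at 0.41. When low values were raised to the floor, 4 of the 23 were that much higher and the list median was 0.09. This alternative was added after seeing the data. Atf3, a transcription factor of the stress response, read 9.01 on the irradiated array and 7.98 on the control array. Nupr1, a stress-induced chromatin protein gene, was higher by 0.65, and Asns, which makes asparagine, by 0.61. Vldlr, a lipoprotein receptor gene, was the lowest of the list at -0.56. Atf4 itself was at -0.06, the CHOP gene Ddit3 at 0.02, Trib3 at -0.21 and Shmt2 at -0.29. Stress-response genes were known to be higher on these arrays when the list was chosen, so it is no independent evidence of direction. The list of eIF2 kinases, phosphatase subunits and 2 of their regulators, Dnajc3 and Nck1, had a median of 0.02 over 8 genes, from -0.08 to 0.16. None reached 0.32, beside 4.65% of expressed genes that much higher and 3.75% that much lower. With so few genes that is no result.

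The remaining lists lay near 0. Genes of the mTORC1 and S6 kinase axis had a median of -0.02 over 17 genes, where Ddit4, an mTORC1 inhibitor and also an ATF4 target, was the member past 1.5-fold, at 0.60. Poly(A)-binding genes had a median of 0.00 over 9, termination and recycling genes one of -0.01 over 8, and RNA polymerase III genes with tRNA export one of -0.03 over 21. Genes for selenocysteine, diphthamide and hypusine had a median of 0.02 over 11. Synthetase partners and relatives outside the rule had a median of -0.07 over 7, with Aimp1, a scaffold of the multi-synthetase complex, at 0.12. Tarsl2, a threonyl-tRNA synthetase relative, was at -0.17, on the side of 0 opposite to Tars. Its symbol kept it out of the count of cytosolic genes.

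**Figure D4:**
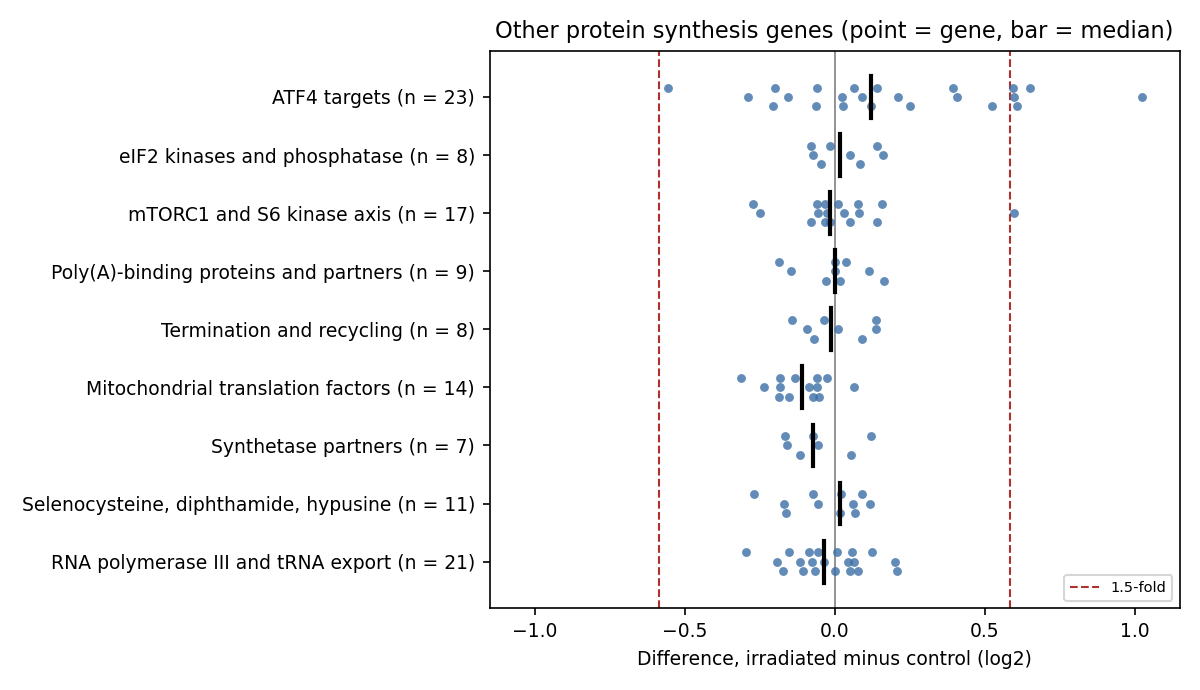
Log2 difference, irradiated minus control, of expressed genes in 9 lists beside the members, with 1 point per gene, a black bar at the median and dashed lines at 1.5-fold. Mitochondrial translation factors lie below 0 in 13 of 14 genes, and ATF4 targets reach from -0.56 to 1.03.

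Markers of other cell types moved between the 2 arrays, and their part in the synthetase differences was not tested. All 7 bile duct markers with a probe set of their own were above 0 with a median of 1.12, and their summed linear intensity was 2117 on the irradiated array and 737 on the control array. Smooth muscle and stellate markers had 9 of 10 above 0 with a median of 0.36, and sums of 4666 on the irradiated array and 2835 on the control array. Cnn1, Acta2, Des, Tagln and Myh11 differed by 2.42, 1.97, 0.95, 0.59 and 0.40. Col1a2, Col1a1 and Lrat were at 0.31, 0.27 and 0.18, and Reln and Pdgfrb at 0.01 and -0.01, so the list did not rise as a whole. Macrophage markers had 9 of 10 above 0 with a median of 0.16, and sums of 7032 on the irradiated array and 6003 on the control array. Their largest difference, Cd14 at 0.65, passed the floor through the irradiated array alone, and Adgre1 was below 0 at -0.05. By comparison, 48.5% of all expressed genes were above 0. Endothelial markers had a median of -0.04 over 10. Of 10 exocrine pancreas markers with a probe set, 7 were under the floor on both arrays, and the list median over the 3 others was -0.02. Ctrb1 was higher by 2.65, while Cela1 and Cel differed by -0.02 and -0.09. The sums were 1131 on the irradiated array and 556 on the control array, and without Ctrb1 439 on the irradiated array and 446 on the control array. Hepatocyte markers had a median of -0.00 and sums of 95853 on the irradiated array and 94884 on the control array. Alb, Ttr and Cyp2e1 among them read 13.70, 13.64 and 13.68 on the irradiated array, whose highest value was 13.91. Whether differences so near the top of the range are compressed was not tested.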

How the data were processed

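Liver RNA was measured on 2 Affymetrix arrays, 1 per group. The authors deposited 1 log2 value per probe set and array, made with RMA in Affymetrix Expression Console 1.3.1 per the submitters' processing notes. The log base was read from the range of the values, and nothing in the sources used here gives the build of the array. RMA sets the arrays to a common distribution, so a difference in total RNA per cell cannot be seen. Gene symbols came from GEO's platform annotation, which can be old. Of 41345 probe sets, 23521 had 1 symbol, and the one with the highest mean stood for each gene. The difference irradiated minus control was computed with Python 3.11.15 and pandas 2.3.3. The shares of all expressed genes past each size and on each side of 0, and their median, are the background for the counts of members and lists. RefSeq tables gave promoters and gene overlaps, and 94 of 94 members matched by gene ID.

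Members, role groups and lists were chosen with earlier results of these data known. Named first were members with a log2 difference of at least 0.32, the highest and lowest of each role and 26 genes fixed by name, of which 20 are reported here with a probe set of their own. Since the role groups are small, their other members are given as well. In each other list up to 3 genes with a difference of at least 0.32 were named by this rule, and the others named there were chosen after their values were seen. The alternatives changed the floor, the scaling, the choice among probe sets, the symbols, the membership, the size threshold and an offset of 32.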

Additional observations from a re-analysis of the deposited data

How the results depend on the processing

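No paired analysis was possible because there were no replicates to pair. The counts and medians of the members kept their direction in the alternatives run, except as given here. At a size of 0.32 on the log2 scale, 3 members were higher and 1 was lower, against 0 and 0 at 1.5-fold. With the second highest probe set, Eif4a1 differed by 0.087 in place of -0.13, and the cause was not tested. The same setting turned Eef1a1 to -0.10, and the mean over probe sets turned it to -0.04. Eif4e (0.01 after quantile scaling) and Eif5a (0.00 after loess) also crossed 0. The median of cytosolic synthetases ran from 0.11 to 0.14 and that of mitochondrial synthetases from -0.08 to -0.05. Mitochondrial genes below 0 numbered 13 of 16 after loess or with the second highest probe set, and 12 of 13 when the floor was raised to the 75th percentile. The cytosolic gene had the larger difference in 10 of 10 amino acids at that floor and in 12 of 12 in the other settings. Running these on the synthetase counts, and leaving out Gars and Kars, were alternatives chosen after seeing the data. All settings reuse the same 2 arrays, so they give no measure of the spread between animals.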
